A study of Mus musculus with 6 samples.

Results

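The genes described are 10 members of the fibroblast growth factor (FGF) pathway: the receptors Fgfr1, Fgfr2, Fgfr3 and Fgfr4, the ligand Fgf18, the inhibitors Spry1, Spry2 and Spry4, and the transcription factors Etv4 and Etv5. They were chosen by name, as 10 of the 18193 genes to which the array's gene table assigns a probe set of their own, and 26 of the 45101 probe sets belong to them. A gene is represented by the probe set that was brightest on average over the 6 arrays. The adult samples were Lyz2+/EpCAM+ cells isolated from lungs of adult mice, the type II cells of the series. The E18 samples were Muc1+/Pdpn+ cells purified by sorting from lungs at embryonic day 18, its bipotent progenitors. Each group had 3 samples labelled as biological replicates, each on 1 Affymetrix 3' expression array, and age and sorted population differ together between the groups. Strain, genotype, sex, the adult age and any pooling of animals were not given in the sources used here. Since nothing says that the replicates were separate animals or litters, p-values measure only the spread between these arrays. The markers went in part against the adult label: in adult replicates 1 and 2 epithelial genes, Epcam among them, were low and lymphocyte genes high, and Lyz2 was lower in adult than in E18 arrays. The E18 arrays also held mesenchymal and endothelial signal, with mean log2 signals of 11.94 for Col1a1 and 10.58 for Cdh5. What cells the arrays of either group hold is therefore in doubt. Every difference below is between arrays so labelled and not between established cell types.

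FGF receptors are tyrosine kinases of the cell surface that pair up when an FGF and heparan sulfate bind them, and they signal largely through Ras and the ERK kinases. In the mouse lung, Fgf10 and Fgf7 from the mesenchyme act on the epithelial form of Fgfr2 and drive branching and distal growth, while Fgfr3 and Fgfr4 act together in alveolar formation. Sprouty proteins are induced by the pathway and dampen it, and Etv4 and Etv5, of the ETS family, are commonly read as targets of FGF signalling.

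Fgfr4 and Fgf18 were lower in adult than in E18 arrays. Fgfr2, Fgfr3, Spry1, Spry4 and Etv5 had lower adult means that did not pass the test, Fgfr1 and Spry2 differed by less than their spread between arrays, and Etv4 lay under the detection floor on all 6 arrays. This floor, the 40th percentile of an array's probe sets, is a rank and not a measured background. Genes that reached it on 3 or more arrays were tested, among them 9 of the 10. Of these 9, 2 were lower and 0 higher at an adjusted p under 0.05 (limma, Benjamini-Hochberg over 13335 genes). Of the 2, Fgf18 reached the floor in E18 arrays alone and so entered the test only through the group where it was high. Its part in the counts here and below is therefore a description. Over all tested genes 5.98% passed, with 4.57% lower and 1.41% higher. The median difference of the 9, adult minus E18 on the log2 scale, was -1.98, beside -0.17 over all tested genes, and it is given as a description only, since Fgf18 reached the floor in E18 arrays alone. The groups did not overlap for 5 of the 10 genes, Fgfr4, Fgf18, Spry1, Spry4 and Etv5, each with its adult values lowest. That was so for 18.8% of all tested genes, and 28.9% did not overlap in one direction or the other.

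**Figure D1:**
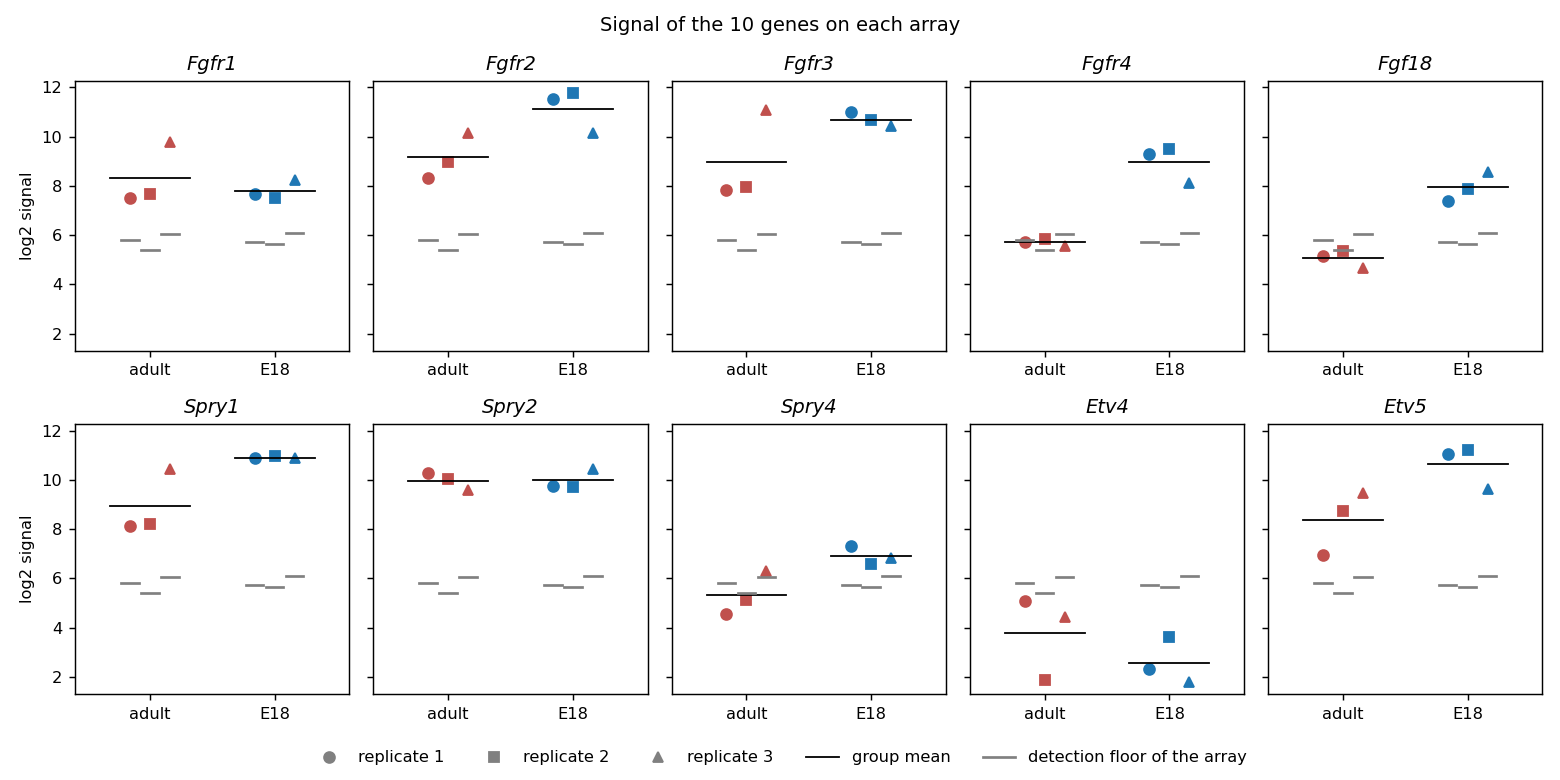
Log2 signal (vertical axis) of the brightest probe set of each of the 10 genes on adult arrays (red, left) and E18 arrays (blue, right), with symbols for replicates, black lines for group means and grey bars for each array's detection floor. In adult replicate 3 Fgfr3 stands at 11.08 and Spry1 at 10.43, far above the other adult arrays, while Fgf18 lies under the floor on every adult array.

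The arrays of a group were not alike. Over the tested genes, E18 replicates 1 and 2 correlated at 0.983, and at 0.928 and 0.921 with E18 replicate 3. The adult arrays correlated at 0.777 to 0.913 with each other. The labels do not say how independent E18 replicates 1 and 2 are, so results with them averaged as 1 sample are also given. The summed signal of 12 epithelial genes was 4356 and 5131 in adult replicates 1 and 2 and 59966 in adult replicate 3, against 26355 to 32929 over the E18 arrays. Epcam, a gene of the adult sort, had log2 signals of 7.85, 8.50 and 10.68 in adult replicates 1, 2 and 3, against 10.69, 11.31 and 9.26 in E18. Lyz2, its other gene, averaged 11.28 in adult and 14.15 in E18 arrays. The linear signals of 11 macrophage genes, Lyz2 among them, summed to 74634 to 133570 in adult and 63494 to 88803 in E18 arrays. Sftpc, the surfactant gene that defines type II cells, was bright throughout. Nkx2-1, a lung epithelial factor, was under the floor on 2 adult arrays and on all 3 E18 arrays. It has a single probe set, and the other 11 of the 12 epithelial genes, Cdh1 among them, were tested. Cdh1 had log2 signals of 9.38, 9.47 and 13.51 in adult replicates 1, 2 and 3, against 12.31, 12.31 and 12.69 in E18. Sums of 10 lymphocyte genes were 23358 to 71284 in adult and 13469 to 24816 in E18, of 12 mesenchymal genes 8355 to 22173 in adult and 56968 to 84974 in E18, and of 12 endothelial genes 3274 to 3911 in adult and 7457 to 26658 in E18. Of the tested markers, 9 of 12 mesenchymal, 4 of 12 endothelial and 6 of 12 type I genes were lower in adult arrays. So were 3 of 8 mesothelial, 7 of 11 cell cycle and 1 of 11 macrophage genes. Of lymphocyte genes 3 of 10 were higher, and 0 of 11 epithelial, 0 of 11 type II and 0 of 6 airway genes passed. Over all tested genes 4.57% were lower and 1.41% higher. Tie1 and Wt1 reached the floor in E18 arrays alone, and Cd3e in adult arrays alone. Their part in these counts and in the medians below is therefore a description. Pdpn, among the type I genes that were lower, is a gene of the E18 sort, so its call is no independent measure of type I signal. The defining mesenchymal and endothelial markers were above the floor on every E18 array. Poly-A spike-in controls averaged 14.17 in adult replicate 3 and 13.66 in E18 replicate 3 on the log2 scale, against 6.87 to 9.61 on the others, and no label names a batch. The 3' minus 5' log2 signal of beta-actin, a sign of RNA quality, was 3.55 in adult replicate 1 and 0.44 to 0.64 on the others. In such bulk samples fewer cells of a type and less RNA per cell cannot be told apart.

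**Figure D2:**
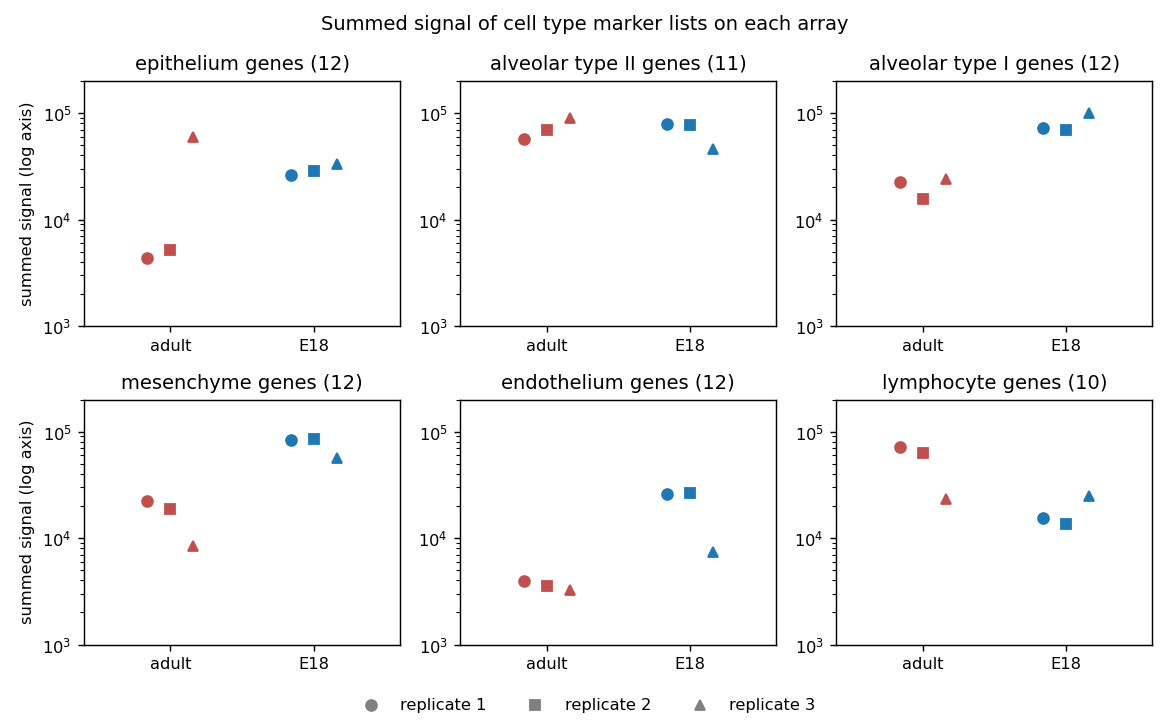
Summed linear signal (log axis) of lists of cell type marker genes on each array, adult in red on the left and E18 in blue on the right, with symbols for replicates. Adult replicate 3 has the highest epithelial sum, 59966, and the lowest lymphocyte sum of the adult arrays, 23358, while mesenchymal sums are below those of E18 on all 3 adult arrays.

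Fgfr4, a receptor that also serves endocrine FGFs together with the co-receptor Klb, was lower in adult arrays. Its log2 signal was 5.71, 5.86 and 5.56 in adult replicates 1, 2 and 3, against 9.28, 9.50 and 8.11 in E18 replicates 1, 2 and 3. The groups did not overlap, and 2 of the 3 adult values were under the floor. The mean was 5.71 ± 0.15 in adult and 8.97 ± 0.75 in E18 (SD, n = 3 each), a difference of -3.26 (SE 0.46, limma adjusted p = 0.0112). It was -3.61 over replicates 1 and 2 and -2.55 between the replicates numbered 3. Over the same subsets the epithelial list had medians of -2.83 and 0.99, the mesenchymal list of -3.65 and -4.28 and the endothelial list of -3.13 and -2.76, and the part of mesenchymal and endothelial signal in the result was not tested. The call was lost without E18 replicate 1 (adjusted p = 0.0857) and without E18 replicate 2 (adjusted p = 0.0820), and with these arrays averaged as 1 sample (adjusted p = 0.0817).

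Of the 5 Fgfr4 probe sets the brightest, 1418596_at, passed. The probe set 1427846_x_at differed by -0.49 (limma adjusted p = 0.536 over all probe sets) and 1427777_x_at by -1.37 (adjusted p = 0.296). The others, 1427776_a_at at -1.58 and 1427845_at at 2.01, were under the floor on all 6 arrays. The mean of the 5 differed by -0.94 and did not pass (adjusted p = 0.344). An x in the name marks probes that can also match other transcripts.

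Fgfr2, through which Fgf7 and Fgf10 reach the lung epithelium, did not pass. Its log2 signal was 8.34, 8.99 and 10.17 in adult replicates 1, 2 and 3, against 11.52, 11.76 and 10.15 in E18 replicates 1, 2 and 3. The groups met in the replicates numbered 3, which were nearly equal, while the other adult arrays were below every E18 array. The difference was -1.98 (SE 0.59, limma adjusted p = 0.104, 95% interval -3.36 to -0.60). Without adult replicate 3 it was -2.48 and passed (adjusted p = 0.0182). Its other probe sets differed by -1.24 (1420847_a_at, adjusted p = 0.218) and -0.16 (1443211_at, adjusted p = 0.916), and which splice form each reads was not examined.

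Fgfr3, which acts with Fgfr4 in mouse alveolar formation, did not pass either. It had log2 signals of 7.85, 7.95 and 11.08 in adult replicates 1, 2 and 3, against 11.00, 10.66 and 10.44 in E18 replicates 1, 2 and 3. Adult replicates 1 and 2 were below every E18 array and adult replicate 3 was above every one. The difference was -1.74 (SE 0.82, limma adjusted p = 0.272, 95% interval -3.65 to 0.18). Without adult replicate 3 it was -2.80 and passed (adjusted p = 0.00209), and the part of the epithelial signal of that array was not tested. The second probe set, 1425796_a_at, was under the floor on 5 arrays.

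Fgfr1, a receptor used widely in mesenchyme, had 7.51, 7.67 and 9.78 in adult replicates 1, 2 and 3, against 7.66, 7.52 and 8.23 in E18 replicates 1, 2 and 3. Adult replicate 3 alone was clearly higher than the rest. The difference was 0.52 (SE 0.63, limma adjusted p = 0.685, 95% interval -0.96 to 1.99), and it was -0.22 without that array. The probe set 1436551_at differed by -0.034 (adjusted p = 0.974).

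Fgf18, a ligand made by the mesenchyme of the late fetal mouse lung, was lower in adult arrays. Its single probe set, 1449545_at, had log2 signals of 5.16, 5.35 and 4.69 in adult replicates 1, 2 and 3, against 7.38, 7.89 and 8.55 in E18 replicates 1, 2 and 3. Every adult value was under its array's floor and every E18 value above it, so the gene was tested only through its E18 values. The mean was 5.06 ± 0.34 in adult and 7.94 ± 0.59 in E18 (SD, n = 3 each), a difference of -2.87 (SE 0.48, limma adjusted p = 0.0176). With the adult values set at the floor, it was at least 4.55-fold lower. The difference was -2.38 over replicates 1 and 2 and -3.86 between the replicates numbered 3. Of 12 mesenchymal markers 9 were also lower, with adult means of 6.80 against 11.94 in E18 for Col1a1, 6.52 against 10.95 for Pdgfra and 6.74 against 11.18 for Tcf21, and their part in the result was not tested. The call was lost without E18 replicate 1 (adjusted p = 0.0844), E18 replicate 2 (adjusted p = 0.117), E18 replicate 3 (adjusted p = 0.0560) or adult replicate 2 (adjusted p = 0.0540), and with E18 replicates 1 and 2 averaged as 1 sample (adjusted p = 0.0933).

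**Figure D3:**
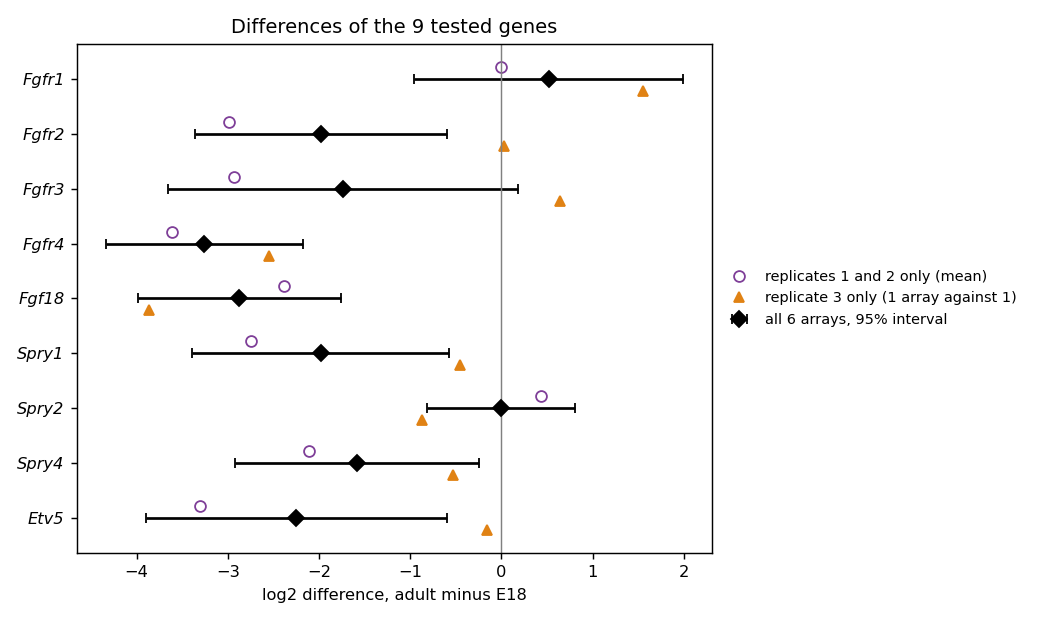
Log2 difference, adult minus E18 (horizontal axis), of the 9 tested genes, with black diamonds and bars for the fit over all 6 arrays and its 95% interval, purple circles for the difference of means in replicates 1 and 2, and orange triangles for adult replicate 3 minus E18 replicate 3. Fgfr4 and Fgf18 are below 0 in both subsets, whereas Fgfr2 and Fgfr3 are at -2.98 and -2.93 in replicates 1 and 2 and at 0.026 and 0.64 in replicate 3.

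The bases before the annotated starts of Fgfr4, Fgf18 and Fgfr2 are shown, the genes that passed and the other gene with a match to an ETS-family motif. RefSeq (GRCm38.p6) sequences were used for 7 of the 10 genes, at 9 starts. Fgfr1, Spry4 and Etv4 were not searched, so the counts do not cover all 10 genes. The 250 bases before each start were searched on both strands for CCGGAAG and AGGAAG, neither of which contains the other. AGGAAG, in capitals, was present at 2 of the 9 starts, those of Fgfr4 and Fgfr2, and in 29.5% of 32851 such windows of all genes. CCGGAAG was present at 0 of the 9, and in 6.91% of all windows. The GC content was 64.0% at Fgfr4, 77.2% at Fgf18 and 44.0% at Fgfr2, around a median of 52.4% over all windows. The sequences run 5' to 3' along the gene, Fgfr4 at chr13:55152568-55152817 on the plus strand, Fgf18 at chr11:33147401-33147650 and Fgfr2 at chr7:130266809-130267058, both on the minus strand.
Fgfr4: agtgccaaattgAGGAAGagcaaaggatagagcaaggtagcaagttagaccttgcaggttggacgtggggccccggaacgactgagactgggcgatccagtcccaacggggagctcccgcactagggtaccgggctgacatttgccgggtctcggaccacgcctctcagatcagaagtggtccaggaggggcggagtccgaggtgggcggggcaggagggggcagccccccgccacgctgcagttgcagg
Fgf18: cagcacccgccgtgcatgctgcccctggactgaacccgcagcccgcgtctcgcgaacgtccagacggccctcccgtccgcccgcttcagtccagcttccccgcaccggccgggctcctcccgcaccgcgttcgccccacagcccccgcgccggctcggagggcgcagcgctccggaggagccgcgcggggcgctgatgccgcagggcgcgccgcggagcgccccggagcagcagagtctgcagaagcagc
Fgfr2: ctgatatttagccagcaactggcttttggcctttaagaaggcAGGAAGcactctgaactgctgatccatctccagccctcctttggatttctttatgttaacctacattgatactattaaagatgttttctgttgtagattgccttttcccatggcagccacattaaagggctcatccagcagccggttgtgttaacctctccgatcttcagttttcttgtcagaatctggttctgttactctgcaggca

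None of the 3 Sprouty genes passed. Spry1, an inhibitor of receptor tyrosine kinase signalling, had log2 signals of 8.15, 8.20 and 10.43 in adult replicates 1, 2 and 3, against 10.88, 10.96 and 10.88 in E18 replicates 1, 2 and 3. The groups did not overlap, but adult replicate 3 was close to the E18 arrays and far from the other adult arrays. The difference was -1.98 (SE 0.61, limma adjusted p = 0.110, 95% interval -3.39 to -0.57). It was -2.75 over replicates 1 and 2 and -0.45 between the replicates numbered 3. Without adult replicate 3 it passed, at -2.74 (adjusted p = 0.00169).

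Spry2, a Sprouty described in airway branching, stood at 10.29, 10.06 and 9.58 in adult replicates 1, 2 and 3, against 9.77, 9.72 and 10.45 in E18 replicates 1, 2 and 3. The ranges overlapped and the means were nearly equal, 9.98 ± 0.37 in adult and 9.98 ± 0.41 in E18 (SD, n = 3 each, limma adjusted p = 0.996). The 95% interval of the difference ran from -0.81 up to 0.80. So small a difference changed direction with the scaling, and it was 0.12 under quantile normalization and 0.15 under median centring. Its second probe set, 1421656_at, gave 0.25 (adjusted p = 0.818).

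Spry4, a further inhibitor of this family, was dim. Its main probe set, 1440867_at, had log2 signals of 4.54, 5.12 and 6.28 in adult replicates 1, 2 and 3, against 7.30, 6.58 and 6.82 in E18 replicates 1, 2 and 3. The groups did not overlap, and 2 adult values were under the floor. The difference was -1.58 (SE 0.58, limma adjusted p = 0.166), and without adult replicate 3 it passed, at -2.07 (adjusted p = 0.0228). All 4 Spry4 probe sets had negative differences. That of 1445669_at was -2.83 (adjusted p = 0.0644 over all probe sets), with every adult value under the floor. The probe set 1422021_at had 2.44, 1.39 and 2.20 in adult replicates 1, 2 and 3, against 7.93, 7.25 and 5.53 in E18 replicates 1, 2 and 3, but reached the floor on too few arrays for a test.

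Of the ETS factors, Etv5 did not pass and Etv4 was not measured above the floor. Etv5, known for maintaining type II cells in the adult mouse, had log2 signals of 6.94, 8.72 and 9.47 in adult replicates 1, 2 and 3, against 11.07, 11.20 and 9.63 in E18 replicates 1, 2 and 3. The groups did not overlap, although the replicates numbered 3 were close, and adult replicate 1, the array with the highest 3' minus 5' beta-actin signal, was lowest. The difference was -2.25 (SE 0.71, limma adjusted p = 0.119, 95% interval -3.90 to -0.60). Without adult replicate 1 it was -1.53 (adjusted p = 0.213), and without adult replicate 3 it passed, at -2.80 (adjusted p = 0.0264). The part of RNA quality was not tested. The probe set 1450082_s_at gave -2.55 (adjusted p = 0.204), and 1420998_at, mostly under the floor, gave 0.44. Etv4, a close relative, had 5.07, 1.88 and 4.44 in adult replicates 1, 2 and 3, against 2.31, 3.61 and 1.81 in E18 replicates 1, 2 and 3. All of these, and all values of its second probe set, were under the floor, so no direction is drawn from them.

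**Figure D4:**
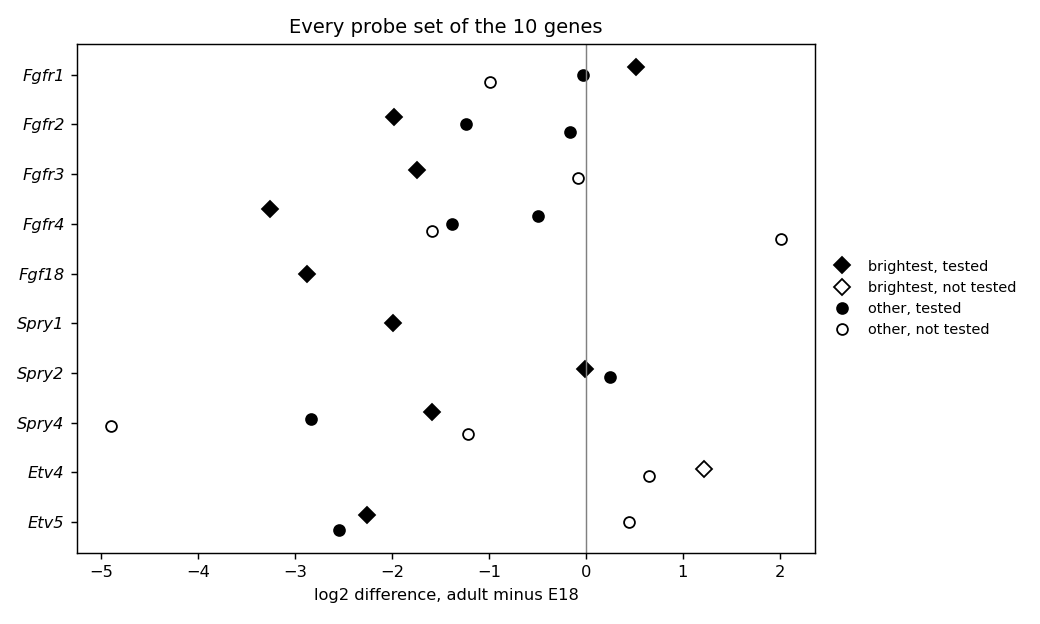
Log2 difference, adult minus E18 (horizontal axis), of each of the 26 probe sets of the 10 genes, with diamonds for the brightest probe set of a gene and circles for the others, filled where tested and open where the floor was reached on fewer than 3 arrays. Of the 26, 20 lie below 0, and of the 17 tested 15 do. Among the 17, that of Fgf18 and 1445669_at of Spry4 reached the floor in E18 arrays alone. Genes with several probe sets count several times, so these counts are a description. Over all tested genes, each by its brightest probe set, 59.0% had a difference below 0. The probe sets of Fgfr4 spread between -3.26 and 2.01.

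Of the 26 probe sets 17 were tested and 2 passed, those of Fgfr4 and Fgf18, where 3.96% of all tested probe sets passed and 3.05% were lower. Adult replicates 1 and 2 were both below every E18 array for 7 of the 10 genes, Fgfr2, Fgfr3, Fgfr4, Fgf18, Spry1, Spry4 and Etv5. Adult replicate 3 was the highest adult array for 6 genes, Fgfr1, Fgfr2, Fgfr3, Spry1, Spry4 and Etv5, and the lowest for 3, Fgfr4, Fgf18 and Spry2. Neither count was made over all tested genes, so neither is read as a trait of these genes. Without adult replicate 3, 7 genes were lower at an adjusted p under 0.05, where 15.5% of all tested genes were. The adult arrays then left were replicates 1 and 2, those low in epithelial and high in lymphocyte genes. Fgfr2, Fgfr3, Spry1 and Etv5 did not pass with any other single array left out. Without E18 replicate 1, and without E18 replicate 2, 0 of the 10 passed, and 69 and 66 of all genes did, against 798 with every array.

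The genes whose pattern was most like that of the passing genes were found by the root mean square difference of log2 values over the 6 arrays, each gene centred on its own mean. For Fgfr4 they were Mylk, a myosin kinase, at 0.10, Mpdz, a scaffold protein, at 0.11 and Sema3d, a secreted semaphorin, at 0.13. Mylk averaged 8.83 in adult and 12.22 in E18 arrays. For Fgf18 they were Epha4, an ephrin receptor, at 0.32, Lyz2 at 0.34 and Scel, the cell envelope protein sciellin, at 0.35, so that no tested gene lay as near to Fgf18 as these did to Fgfr4.

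Beyond the 10 genes, 88 of 97 pathway genes in 7 lists had a probe set of their own and 73 were tested. Of these 73, 5 were lower in adult arrays, 0 higher and 68 did not pass, where 4.57% of all tested genes were lower and 1.41% higher, so the share was near that of all genes. Their median difference was -0.53, beside -0.17 over all tested genes. Fgf10, among the 73, reached the floor in E18 arrays alone, so its part in these counts and this median is a description. Without E18 replicate 1 or E18 replicate 2, 1 was lower in each case. The count was 2 when adult replicate 2 was left out and 21 when adult replicate 3 was.

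Of 17 further FGF ligands 6 were tested and 0 passed, with a median of -1.72. Of the 6, Fgf10 reached the floor in E18 arrays alone and so entered the test only through the group where it was high. Its part in these counts and this median is therefore a description. Fgf1, which binds all FGF receptors, had log2 signals of 6.84, 6.86 and 10.10 in adult replicates 1, 2 and 3, against 9.63, 9.59 and 9.83 in E18 replicates 1, 2 and 3 (difference -1.75, limma adjusted p = 0.278). Its adult replicate 3 was near E18 and the other adult arrays were below. Fgf7, the mesenchymal ligand of epithelial Fgfr2, had 6.92, 3.11 and 4.71 in adult replicates 1, 2 and 3, against 8.92, 8.52 and 7.99 in E18 replicates 1, 2 and 3 (difference -3.57, limma adjusted p = 0.0643). Its groups did not overlap, and 2 of its adult values were under the floor.

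Of 13 tested co-receptors and FGF-binding proteins 2 were lower, with a median of -0.94. Gpc3, a glypican with heparan sulfate chains, had log2 signals of 6.77, 5.45 and 6.07 in adult replicates 1, 2 and 3, against 10.96, 11.13 and 10.05 in E18 replicates 1, 2 and 3 (difference -4.62, SE 0.47, limma adjusted p = 0.00460). Flrt2, a membrane protein of a family that binds FGF receptors, had 7.17, 6.53 and 6.58 in adult replicates 1, 2 and 3, against 9.07, 9.15 and 8.90 in E18 replicates 1, 2 and 3 (difference -2.28, SE 0.35, limma adjusted p = 0.0141). The groups overlapped for neither gene. Of 10 tested enzymes that build or edit heparan sulfate 1 was lower, Hs2st1, a sulfotransferase, at 9.63 ± 0.28 in adult and 11.90 ± 0.34 in E18 (SD, n = 3 each, limma adjusted p = 0.0105). Sulf2, which removes sulfate groups, did not pass (difference 0.29, adjusted p = 0.624).

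Of 17 tested signal transducers 1 was lower, with a median of -0.36. It was Gab1, an adaptor that links the receptors to PI3K, at 9.51 ± 0.48 in adult and 11.14 ± 0.19 in E18 (SD, n = 3 each, difference -1.63, limma adjusted p = 0.0338). The brightest members, the kinase Rps6ka3 (-0.051, adjusted p = 0.945) and the adaptor Crk (-1.10, adjusted p = 0.0936), did not pass. Of 10 tested feedback inhibitors other than the Sproutys above 1 was lower, with a median of -0.42. It was Il17rd, a membrane antagonist of FGF signalling also called Sef, with log2 signals of 6.36, 6.48 and 5.98 in adult replicates 1, 2 and 3, against 9.22, 9.16 and 7.55 in E18 replicates 1, 2 and 3 (difference -2.37, SE 0.53, limma adjusted p = 0.0443). Errfi1, an inhibitor of EGF receptor signalling (-0.82, adjusted p = 0.414), and the ERK phosphatase Dusp5 (1.46, adjusted p = 0.162) did not pass.

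Of 13 tested transcripts that ERK commonly induces 0 were lower and 0 higher, with a median of -0.16. The transcription factors Egr1 (-0.16, adjusted p = 0.792) and Fos (0.34, adjusted p = 0.496) were the brightest. Of 4 splicing regulators of FGF receptors 0 passed, with a median of -1.26. Esrp1, which favours the epithelial form of Fgfr2, had log2 signals of 6.55, 5.67 and 10.01 in adult replicates 1, 2 and 3, against 9.62, 9.99 and 9.43 in E18 replicates 1, 2 and 3 (difference -2.27, limma adjusted p = 0.247). Adult replicate 3 was again the high adult array. Ptbp1, a splicing repressor, differed by -0.51 (adjusted p = 0.353).

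**Figure D5:**
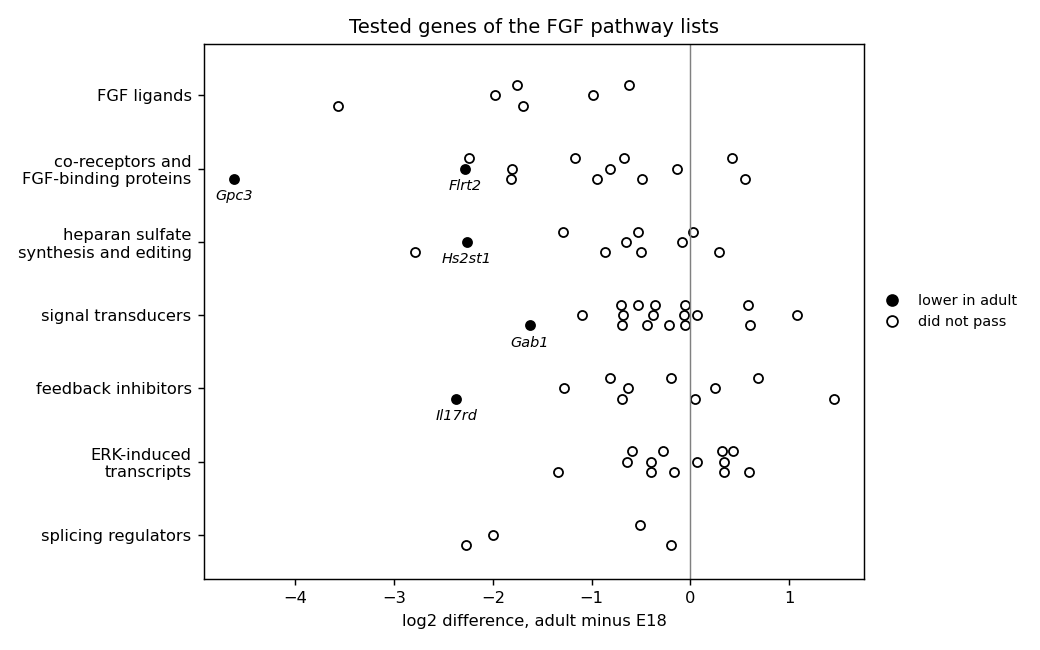
Log2 difference, adult minus E18 (horizontal axis), of the 73 tested genes of the 7 pathway lists, by list, filled where the gene was lower at an adjusted p under 0.05. Gpc3 is at -4.62, and the transcripts that ERK commonly induces have a median of -0.16.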

How the data were processed

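The deposited values are linear signal intensities per probe set, for which the submitters' processing notes list the Affymetrix Expression Console and MAS5. The trimmed mean of each deposited array was near 500. RNA was amplified before biotin labelling per the labels' protocols. All values were above 0, and they were put on the log2 scale without a pseudocount or another normalization.

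Gene names came from the array's gene table, and all 26 probe sets of the 10 genes matched RefSeq by gene ID. The floors, the 40th percentiles, were log2 signals of 5.40 to 6.10. The test was limma 3.58.1 (R 4.3.3) with an intensity trend, two-sided, adult minus E18, adjusted by Benjamini-Hochberg over 13335 genes. SE is moderated. Single probe sets came from a fit over all probe sets that passed the floor rule. The number of arrays limits the precision. No set test was run.

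The genes, lists, naming rule and alternatives were chosen with earlier results of these data known. By that rule the text names the 10 genes, up to 4 passing genes of a pathway list, or its brightest 2 where fewer than 2 passed, defining cell type markers, and the 3 nearest genes of each passing gene. Alternatives were arrays left out, blocks, scaling, floors, a pseudocount of 50, averaged probe sets and the variance prior.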

Additional observations from a re-analysis of the deposited data

How the results depend on the processing

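Same-numbered adult and E18 arrays showed no sign of pairing, with correlations of deviations of 0.036, -0.14 and -0.058 over genes. Differently numbered arrays had -0.10 to 0.15. Weak correlations do not show that the samples were unpaired, and the spike-in signal was high in both replicates numbered 3 (14.17 in adult, 13.66 in E18). With the replicate block 492 genes passed (394 lower, 98 higher), 1 of the 10 was lower, and Fgf18 was at -2.87 (limma adjusted p = 0.0524). With replicates 1 and 2 only, 2996 genes passed (2195 lower, 801 higher), 7 of the 10 were lower where 16.5% of all genes were, and 22 pathway genes were lower and 3 higher. Then Etv5 (-3.30), Fgfr2 (-2.98), Fgfr3 (-2.93), Spry1 (-2.75) and Spry4 (-2.11) passed, Fgfr1 was -0.0026 and Spry2 0.43, and marker medians were -1.23 (airway), -0.81 (type II) and -2.01 (cycling). Chosen after seeing the data and untested, adult replicate 3 minus E18 replicate 3 was 1.55 for Fgfr1, 0.026 for Fgfr2, 0.64 for Fgfr3, -2.55 for Fgfr4, -3.86 for Fgf18, -0.45 for Spry1, -0.87 for Spry2, -0.53 for Spry4, 2.63 for Etv4, under the floor on both arrays, and -0.16 for Etv5. With E18 replicates 1 and 2 averaged as 1 sample, 63 genes passed (41 lower, 22 higher), 1 pathway gene was lower and 0 of the 10, with Fgfr4 at -3.04 (adjusted p = 0.0817) and Fgf18 at -3.03 (adjusted p = 0.0933). With probe sets averaged, 1 of the 10 and 3 pathway genes were lower, Fgfr4 was -0.94, Fgfr1 -0.17 and Spry2 0.12. With replicates 1 and 2 against 3 as a block 2 of the 10 were lower. With the floor at the 60th percentile 1 of the 10 was lower, since Fgf18 was no longer tested. Spry2 was 0.12 under quantile normalization and 0.15 under median centring, which brought the median of all genes to -0.054 and -0.020, against -0.17. The causes were not tested. Leaving out 1 array at a time gave 66 to 2770 passing genes (42 to 2069 lower, 24 to 701 higher), 0 to 7 of the 10 lower, 1 to 21 pathway genes lower and 0 to 1 higher, and differences of -0.22 to 0.92 for Fgfr1, -2.48 to -1.57 for Fgfr2, -2.80 to -1.18 for Fgfr3, -3.68 to -2.99 for Fgfr4, -3.16 to -2.57 for Fgf18, -2.74 to -1.59 for Spry1, -0.16 to 0.23 for Spry2, -2.07 to -1.20 for Spry4 and -2.80 to -1.53 for Etv5. Marker medians then ran over -1.01 to 1.04 (airway), -2.87 to -2.22 (type I), -0.31 to 0.22 (type II), -1.96 to -1.50 (cycling), -3.49 to -2.57 (endothelium), -2.86 to -0.75 (epithelium), 3.19 to 4.72 (lymphocyte), -0.80 to 0.047 (macrophage), -4.59 to -3.26 (mesenchyme) and -2.43 to -1.55 (mesothelium). Signal over background limits Etv4 and the adult values of Spry4, Fgf18 and Fgfr4, which lay mostly under the floor.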
